A study of Mus musculus with 4 samples.

Results

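The genes described are 41 genes of mitosis and chromosome segregation, read by symbol from the count tables of sorted bone marrow monocytes. They were chosen as a textbook list of the mitotic machinery, with earlier results of these data known. All 41 were found among the 31017 gene symbols and among the 12035 genes with enough counts to be tested. The libraries came from wild-type C57BL/6 mice, with 2 from animals aged 18 months (aged) and 2 from animals aged 3 months (young), and monocytes had been isolated by FACS. The labels give atherosclerosis as the disease of all 4 libraries, and do not say whether the donors carried plaques or whether each library stands for its own animal, and the p-values below therefore describe library-to-library spread that may be technical. By its title the study concerns marrow age and the clonal make-up of smooth muscle-derived plaque cells.

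In mitosis the duplicated chromosomes are compacted, attached to a spindle of microtubules and pulled apart, after which the cell divides. The step is started by the kinase Cdk1 with its cyclins, held back by the spindle checkpoint until all chromosomes are attached, and completed when the anaphase promoting complex marks cyclins and securin for destruction. Most of these genes are switched on together in the G2 phase, so their transcripts in a tissue come mainly from its dividing cells. In bone marrow, monocytes arise from dividing precursors, and mature monocytes in blood hardly divide.

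Library totals ranged from 20159129 to 34278754 counts, and young replicate 1 was the deepest. Lyz2, the lysozyme gene of myeloid cells, had 34835 and 34698 CPM in aged monocytes, against 32747 and 35199 CPM in young monocytes, where CPM is the count scaled to library size with TMM factors. Ccr2, a chemokine receptor of classical monocytes, stood at 2367 and 2079 CPM in aged and 2007 and 1943 CPM in young monocytes, so defining transcripts of the labelled cell type were present. Genes listed as neutrophil markers were abundant as well, led by S100a9. It had 7929 and 8385 CPM in aged and 9193 and 8832 CPM in young monocytes. The summed CPM of 9 such markers was 28558 and 28971 for aged libraries, against 29169 and 27936 for young libraries, which overlapped. Ngp and Ltf, granule genes, rose and S100a8 and Cxcr2 fell. Whether the transcripts of these markers came from neutrophils or from the monocytes themselves was not tested. The part of neutrophils in the levels given below was not tested either.

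All 41 mitosis genes were expressed at every age, with 393 to 11333 counts per gene and library. Most stood slightly lower in the aged libraries, and the differences were small. The summed level of the 41 genes was 3956 and 3811 CPM in aged and 4201 and 4233 CPM in young monocytes, a ratio of 0.921. Both aged libraries lay below both young ones. In each library the genes took 0.379% to 0.423% of all counts. Fewer dividing cells and less mitotic RNA per dividing cell cannot be told apart in such bulk samples.

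Of the 41 genes, 2 fell and 0 rose in aged monocytes (edgeR quasi-likelihood test, Benjamini-Hochberg adjusted p below 0.05 over all tested genes). This is 4.88% of the members, against 5.77% of all tested genes, of which 2.87% rose and 2.89% fell, so the share called was near the background. At an unadjusted edgeR p under 0.05, 17 of the 41 members were lower and 0 higher, where 11% of all tested genes were lower. The log2 change, aged over young, was negative in 31 of 41 members and in 50.7% of all tested genes, and its median was -0.13 for the members and -0.0044 for all tested genes. Both aged libraries lay below both young ones in 25 of 41 members, or 61.0%, against 25.7% of all tested genes. They lay above both young ones in 1 of 41 members, against 25.9% of all tested genes. Separation of the ages in either direction was seen for 51.6% of all tested genes. These genes were read from the same libraries and are known to be switched on together, so the counts are not 41 independent observations. DESeq2 called the same 2 members, and limma-voom called these and Ccna2, and neither tool called any further member.

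**Figure D1:**
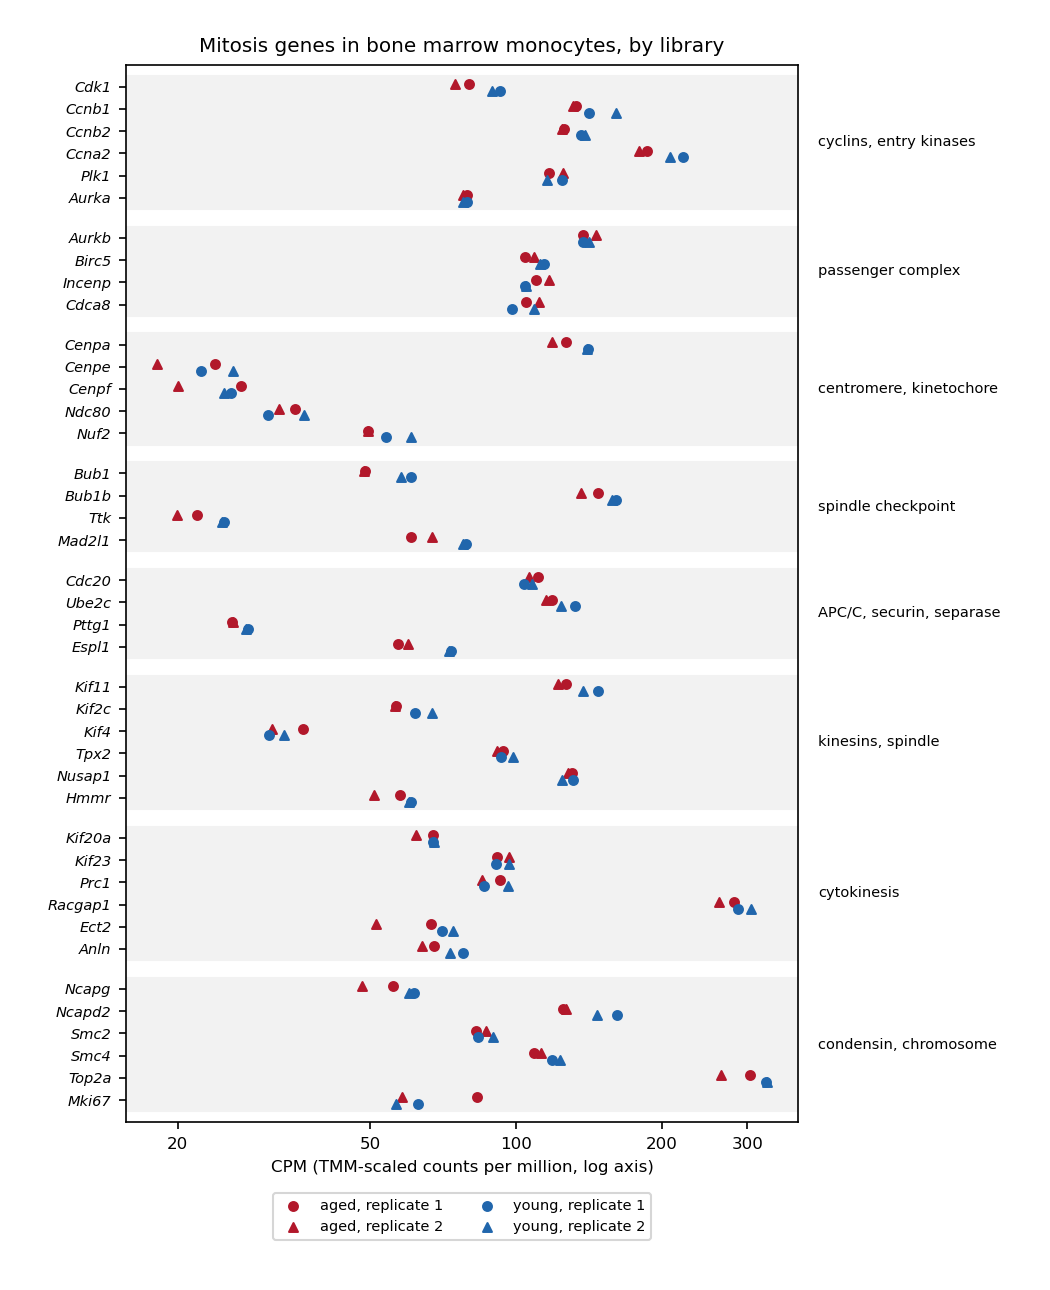
CPM of each of the 41 mitosis genes (rows, grouped by role) on a log axis, with aged libraries in red above young libraries in blue; circles are replicate 1 and triangles replicate 2. The levels run from 18.1 CPM for Cenpe in aged replicate 2 to 330.1 CPM for Top2a in young replicate 2, and in 25 rows both red symbols lie left of both blue ones.

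**Figure D2:**
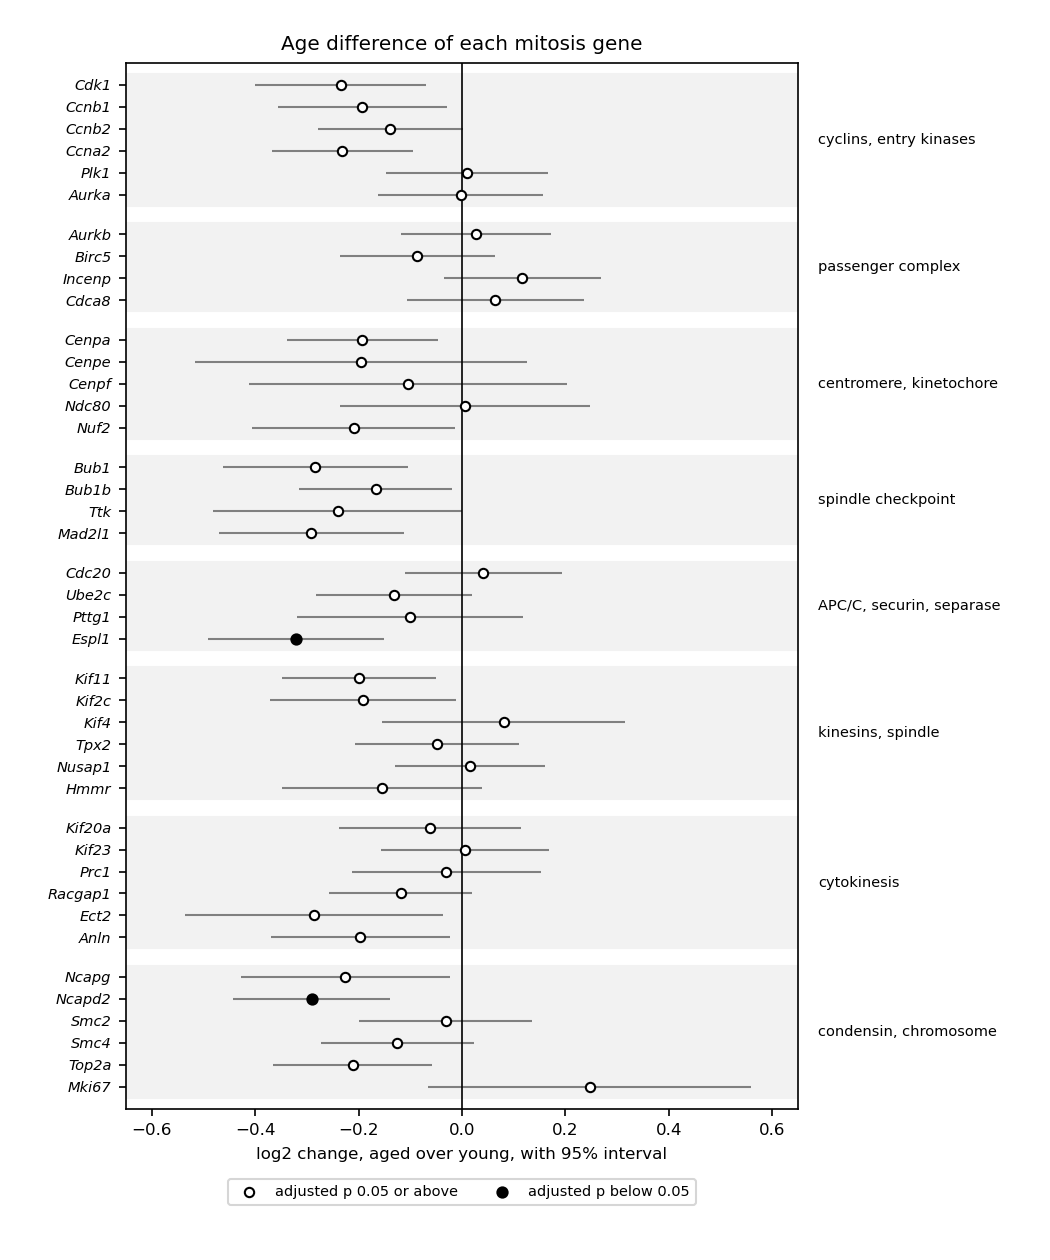
Log2 change of each mitosis gene, aged over young, with its 95% interval (n = 2 libraries per age). Filled symbols mark the 2 genes past the threshold, Espl1 and Ncapd2, and every interval lies between -0.54 and 0.56.

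The test had room to see larger changes in these well-counted genes. Standard errors of the log2 changes ran from 0.061 to 0.14, and the 95% intervals of all 41 members lay inside a change of 1.5-fold in either direction. For 21 members the interval also lay inside 1.25-fold. The intervals of 17 members lay wholly below 0 and those of 0 members wholly above it.

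The larger of both falls was that of Espl1, which encodes separase, the protease that cuts cohesin and lets sister chromatids part. It had 56.9 and 59.8 CPM in aged and 73.2 and 72.5 CPM in young monocytes, with no overlap between the ages. Aged monocytes averaged 58.3 ± 2.09 CPM and young monocytes 72.9 ± 0.483 CPM (SD, n = 2 each), which gave -0.32 ± 0.077 on the log2 scale (standard error; adjusted p = 0.0378 by edgeR; chromosome 15, 102296266 to 102324357, GRCm38). Espl1 still passed without aged replicate 2 (adjusted p = 0.0496), and did not pass without aged replicate 1 (0.0774), young replicate 1 (0.245) or young replicate 2 (0.124). Its partners in the same step were nearer to equal. Pttg1, the securin gene whose product holds separase inactive, had 25.8 and 26.0 CPM in aged and 27.9 and 27.7 CPM in young monocytes (-0.10 ± 0.099, edgeR adjusted p = 0.604). Cdc20, the activator of the anaphase promoting complex, had 111 and 106 CPM against 104 and 108 CPM in young monocytes, which overlapped. Ube2c, the ubiquitin-conjugating enzyme of that complex, had 118 and 115 CPM in aged and 132 and 123 CPM in young monocytes, without overlap but short of the threshold (edgeR adjusted p = 0.302).

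Ncapd2, a regulatory subunit of condensin I, which compacts chromosomes, was the other gene that fell. It had 125 and 127 CPM in aged and 161 and 147 CPM in young monocytes, and the ages did not overlap. Aged monocytes averaged 126 ± 1.12 CPM and young monocytes 154 ± 10.2 CPM (SD, n = 2 each), which gave -0.29 ± 0.069 on the log2 scale (adjusted p = 0.0358 by edgeR; chromosome 6, 125168007 to 125191701, GRCm38). It passed without aged replicate 1 (0.0352) and without young replicate 2 (0.0348), and did not without aged replicate 2 (0.0617) or young replicate 1 (0.329). The second condensin I subunit listed, Ncapg, had 55.7 and 48.1 CPM in aged and 61.5 and 60.0 CPM in young monocytes (-0.23 ± 0.091, edgeR adjusted p = 0.188). The core ATPase genes that condensin I shares with condensin II had smaller changes, and a difference between the subunits was not tested. Smc2 had 82.6 and 86.6 CPM against 83.4 and 89.7 CPM in young monocytes, which overlapped (-0.031 ± 0.075). Smc4 had 109 and 113 CPM against 118 and 123 CPM, without overlap (-0.12 ± 0.067, edgeR adjusted p = 0.316). Top2a, the topoisomerase that untangles sister DNA, was the most abundant member by counts, with 304 and 265 CPM in aged and 328 and 330.1 CPM in young monocytes (-0.21 ± 0.069, edgeR adjusted p = 0.11). Aged replicate 2 was the lowest library for both Ncapg and Top2a. Without aged replicate 1, Top2a passed at -0.31 (adjusted p = 0.00421) and Ncapg at -0.34 (0.0456), and without aged replicate 2 the changes were -0.12 (0.374) and -0.13 (0.53). Top2a passed also with no low-count filter (0.0134).

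Mki67, the gene of the proliferation marker Ki-67, which coats mitotic chromosomes, had a change of the opposite sign to most members. It stood at 83.1 and 58.0 CPM in aged and 62.6 and 56.3 CPM in young monocytes. Aged replicate 1 alone was high, and aged replicate 2 lay between the young libraries. The log2 change was 0.25 ± 0.14 (edgeR adjusted p = 0.348), with a 95% interval from -0.065 to 0.56. Without aged replicate 2 the gene passed as higher (0.48, adjusted p = 0.0144), and without aged replicate 1 its change was -0.038 (0.882), so that 1 library decided its sign.

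Among the mitotic cyclins and entry kinases 0 of 6 passed, and 3 were lower at an unadjusted edgeR p under 0.05. The 4 genes of Cdk1 and its cyclins were lower in both aged than in both young libraries. Over all tested genes 11% were lower at that p, and 25.7% had both aged libraries below both young ones. Cdk1, the kinase that starts mitosis, had 79.8 and 74.7 CPM in aged and 92.7 and 89.0 CPM in young monocytes (-0.23 ± 0.074, edgeR adjusted p = 0.101). Ccna2, the cyclin that acts in S phase and G2, came nearest to the threshold among the members not called, with 186 and 179 CPM against 221 and 208 CPM in young monocytes (-0.23 ± 0.061, adjusted p = 0.0545). It passed with limma-voom (0.0449) and with a robust fit (0.0421), 2 of the 6 alternatives of 14 in which it was called, and its adjusted p ran from 0.0026 to 0.381 over all of them. The B-type cyclins that complete the entry kinase gave -0.19 ± 0.074 for Ccnb1, at 133 and 131 CPM against 141 and 160.5 CPM, and -0.14 ± 0.063 for Ccnb2, at 126 and 124 CPM against 136 and 139 CPM. The kinases of the centrosome and spindle poles were level. Plk1 had 117 and 125 CPM in aged and 124 and 116 CPM in young monocytes (0.0094 ± 0.071, 95% interval -0.15 to 0.17), and Aurka had 79.0 and 77.7 CPM against 79.2 and 77.7 CPM (-0.0028 ± 0.072, interval -0.16 to 0.16).

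The spindle checkpoint genes, which delay anaphase while any chromosome is unattached, were lower in both aged libraries for 4 of 4 members, and 0 passed, although 4 had an unadjusted p under 0.05. Of all tested genes 25.7% had both aged libraries below both young ones and 11% were lower at that unadjusted p. Mad2l1, which encodes the checkpoint protein Mad2, had 60.5 and 67.1 CPM in aged and 78.7 and 77.5 CPM in young monocytes (-0.29 ± 0.081, edgeR adjusted p = 0.0628). Bub1, the kinase gene of the checkpoint at kinetochores, had 48.8 and 48.6 CPM against 60.5 and 57.9 CPM (-0.28 ± 0.081, adjusted p = 0.0676). Mad2l1 passed without aged replicate 2 (0.0413) and with no low-count filter (0.0192), and Bub1 passed with no low-count filter (0.0435). Bub1b, whose product BubR1 inhibits Cdc20, gave -0.17 ± 0.066, and Ttk, which encodes the kinase Mps1, -0.24 ± 0.11, with adjusted p of 0.181 and 0.237. The summed CPM of the 4 genes was 279 and 271 in aged and 325 and 318 in young monocytes, a ratio of 0.857 and the lowest of the 8 role groups.

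The chromosomal passenger complex, which corrects faulty attachments and later guides cytokinesis, had the highest such ratio, at 1.02, with a summed CPM of 456 and 484 in aged and 454 and 466 in young monocytes. Of its members 0 of 4 passed or had an unadjusted p under 0.05, against 5.77% and 21.1% of all tested genes in either direction. Aurkb, the kinase subunit, had 137 and 146 CPM in aged and 137 and 141 CPM in young monocytes (0.026 ± 0.065). Incenp, the scaffold subunit, was the 1 member of the 41 with both aged libraries above both young ones, at 110.0 and 117 CPM against 104 and 105 CPM (0.12 ± 0.068, edgeR adjusted p = 0.364). Birc5, the survivin gene, gave -0.086 ± 0.067, and Cdca8, the borealin gene, 0.065 ± 0.077. The 95% intervals of all 4 lay inside a change of 1.25-fold.

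Centromere and kinetochore genes ranged widely in level, and 0 of 5 passed. At an unadjusted edgeR p under 0.05, 2 of them were lower, against 11% of all tested genes. Cenpa, the histone variant that marks centromeres, had 127 and 119 CPM in aged and 140.4 and 140.0 CPM in young monocytes (-0.19 ± 0.066, edgeR adjusted p = 0.122). Nuf2 and Ndc80 encode partners in the same microtubule-binding complex. Nuf2 had 49.4 and 49.5 CPM in aged and 53.9 and 60.8 CPM in young monocytes, and Ndc80 had 34.9 and 32.3 CPM against 30.7 and 36.4 CPM, so the ages separated for Nuf2 and overlapped for Ndc80. Whether these partners differ from each other in their response was not tested. Cenpe, a kinetochore motor, had 23.8 and 18.1 CPM in aged and 22.3 and 26.0 CPM in young monocytes, and Cenpf, a large kinetochore protein, had 27.0 and 20.1 CPM against 25.8 and 24.9 CPM, with aged replicate 2 the lowest library for both.

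Of 6 kinesins and spindle proteins 0 passed, with 2 lower at an unadjusted edgeR p under 0.05, against 11% of all tested genes. Kif11, the motor that pushes spindle poles apart, had 126 and 122 CPM in aged and 148 and 137 CPM in young monocytes (-0.20 ± 0.067, edgeR adjusted p = 0.119). Kif2c, which disassembles microtubules at centromeres, had 56.5 and 56.1 CPM against 61.8 and 67.0 CPM (-0.19 ± 0.081, adjusted p = 0.209). Tpx2, the activator of aurora A, and Nusap1, a microtubule-bundling protein, overlapped between the ages with log2 changes of -0.048 and 0.016. Kif4, a motor on chromosome arms, gave 0.081 ± 0.11, and Hmmr, a spindle pole protein, -0.15 ± 0.087.

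Of 6 cytokinesis genes 0 passed, with 2 lower at an unadjusted edgeR p under 0.05, against 11% of all tested genes. Ect2, the exchange factor that activates RhoA at the cleavage furrow, had 66.7 and 51.4 CPM in aged and 70.3 and 74.0 CPM in young monocytes (-0.29 ± 0.11, edgeR adjusted p = 0.176). Its aged libraries lay far apart. With no low-count filter Ect2 passed (edgeR adjusted p = 0.0271). It passed without aged replicate 1 (-0.49, adjusted p = 0.00232), and the change was -0.11 without aged replicate 2 (0.572). Anln, the anillin gene of the contractile ring, had 67.6 and 63.9 CPM in aged and 77.6 and 73.1 CPM in young monocytes (-0.20 ± 0.078, adjusted p = 0.18). The centralspindlin genes Racgap1 and Kif23 gave -0.12 ± 0.063 and 0.0056 ± 0.073. Racgap1 was the second most abundant member by counts, at 282 and 263 CPM in aged and 286 and 305 CPM in young monocytes, while Kif23 had 91.3 and 96.8 CPM against 90.8 and 96.6 CPM. Prc1, which bundles the central spindle, and the motor gene Kif20a gave -0.031 ± 0.082 and -0.062 ± 0.079.

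Levels of different genes were compared per kilobase of merged exons, since long transcripts collect more reads. On this scale the members spanned from 1.58 CPM per kb for Cenpf to 85.8 CPM per kb for Ccnb2, a 54.1-fold range around a median of 17.0 (mean of the 4 libraries). Ccnb2 had 82.1 and 81.2 CPM per kb in aged and 89.0 and 90.8 CPM per kb in young monocytes. Cdc20 and Plk1 followed, at 57.3 and 54.8 CPM per kb, and these neighbours overlapped between libraries. At the low end stood Cenpf, Cenpe, Ttk and Ndc80, with 1.58, 2.62, 4.65 and 5.17 CPM per kb. Mki67 was also low per length, at 6.46 CPM per kb. Merged exons take in all annotated isoforms, so genes with long rare isoforms are set too low.

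The aged libraries differed from each other in a few members. On the log2 CPM scale aged replicate 1 exceeded aged replicate 2 by more than 0.3 in 4 members, Mki67 (0.52), Cenpf (0.43), Cenpe (0.40) and Ect2 (0.38), and the reverse held in 0. Between the young libraries 0 members differed by more than 0.3 either way. Over the 41 members the difference between the aged libraries went with merged exon length at Pearson r = 0.51 and Spearman rho = 0.36, and that between the young libraries at -0.0021 and -0.073, as descriptions across genes that share the same libraries. Over all tested genes the 5th and 95th percentiles of this difference were -0.53 and 0.56 in aged and -0.45 and 0.53 in young monocytes, and the 4 members lay inside the range in aged monocytes. Standard errors were largest for the members with this split, at 0.14 for Mki67, Cenpe and Cenpf. The age change itself went with length at Pearson r = -0.13 and Spearman rho = -0.27, and with log2 mean CPM at 0.012 and 0.051.

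**Figure D3:**
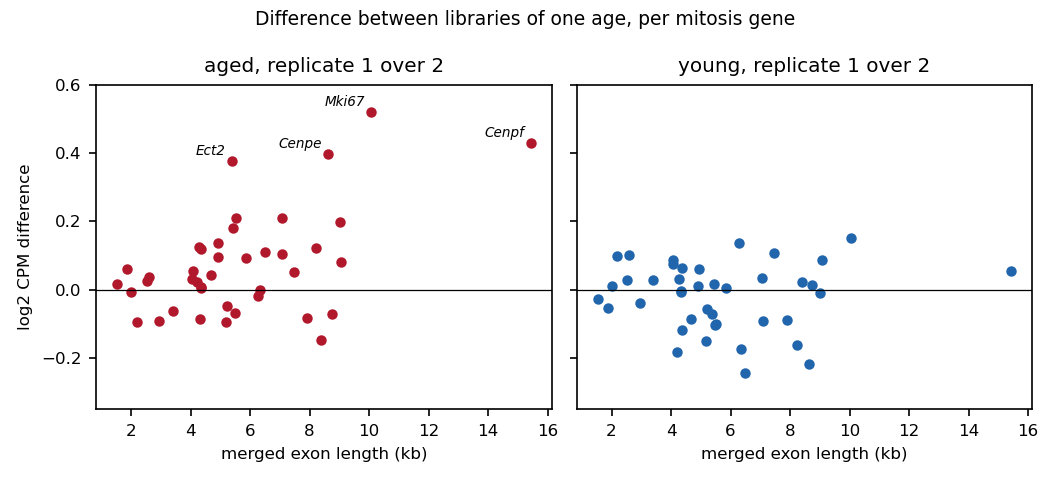
Difference in log2 CPM between replicate 1 and replicate 2 against merged exon length in kilobases, for the 41 mitosis genes, in aged libraries on the left and young libraries on the right. The 4 named genes exceed 0.3 in the aged panel, and no gene passes 0.3 in the young panel.

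Promoters are shown because mitotic genes are known to share a pair of control elements. The cell cycle genes homology region (CHR, searched as TTTGAA on both strands) is bound by the MuvB complex, which represses these genes in resting cells and, with B-Myb and FoxM1, activates them in dividing ones. The NF-Y box (searched as CCAAT on both strands) is bound by the factor NF-Y. Matches of both motifs can share a base, and 1 pair of matches in the members' windows did (Cdca8). RefSeq promoter windows of GRCm38.p6, from 250 bases before to 50 after a transcription start, were at hand for 35 of the 41 genes. The windows below belong to both genes that fell (Espl1, Ncapd2), to the entry kinase Cdk1, to the level Plk1 and to Mki67, each written 5′ to 3′ on the gene's strand with CHR and NF-Y matches in capitals. They lie at chr15:102296043-102296342 (Espl1, plus strand), chr6:125191537-125191836 (Ncapd2, minus strand), chr10:69352863-69353162 (Cdk1, minus strand), chr7:122159185-122159484 (Plk1, plus strand) and chr7:135716330-135716629 (Mki67, minus strand).
Espl1: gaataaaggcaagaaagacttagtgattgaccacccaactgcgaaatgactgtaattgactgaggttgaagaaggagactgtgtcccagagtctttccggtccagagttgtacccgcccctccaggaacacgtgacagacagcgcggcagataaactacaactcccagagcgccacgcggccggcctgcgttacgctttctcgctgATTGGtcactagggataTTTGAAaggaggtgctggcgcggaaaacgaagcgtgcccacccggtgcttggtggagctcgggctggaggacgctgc
Ncapd2: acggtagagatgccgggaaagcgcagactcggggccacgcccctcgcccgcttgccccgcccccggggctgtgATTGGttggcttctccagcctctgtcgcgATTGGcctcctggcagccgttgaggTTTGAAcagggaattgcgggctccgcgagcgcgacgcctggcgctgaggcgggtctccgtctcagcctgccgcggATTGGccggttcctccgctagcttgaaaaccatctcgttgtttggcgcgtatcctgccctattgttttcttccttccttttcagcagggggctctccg
Cdk1: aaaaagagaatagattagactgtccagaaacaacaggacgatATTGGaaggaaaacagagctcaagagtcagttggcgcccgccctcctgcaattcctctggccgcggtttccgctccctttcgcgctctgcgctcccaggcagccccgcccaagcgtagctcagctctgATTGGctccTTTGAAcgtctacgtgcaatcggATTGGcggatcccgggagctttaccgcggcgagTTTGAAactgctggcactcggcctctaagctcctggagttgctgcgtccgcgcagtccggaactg
Plk1: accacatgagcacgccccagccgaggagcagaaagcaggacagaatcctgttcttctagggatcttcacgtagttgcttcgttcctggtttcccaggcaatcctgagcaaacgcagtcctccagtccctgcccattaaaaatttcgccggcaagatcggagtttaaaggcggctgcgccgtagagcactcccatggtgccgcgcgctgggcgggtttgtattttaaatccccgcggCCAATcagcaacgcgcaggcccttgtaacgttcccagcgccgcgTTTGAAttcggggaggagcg
Mki67: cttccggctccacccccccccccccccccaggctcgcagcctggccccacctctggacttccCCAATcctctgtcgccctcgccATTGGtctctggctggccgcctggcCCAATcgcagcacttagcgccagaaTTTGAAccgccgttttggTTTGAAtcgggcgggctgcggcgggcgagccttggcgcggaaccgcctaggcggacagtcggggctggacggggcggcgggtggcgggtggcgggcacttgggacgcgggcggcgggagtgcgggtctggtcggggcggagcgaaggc

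All 5 windows hold both motifs. The CHR match begins at position -27 in Espl1, at -123 in Ncapd2, at -71 and -15 in Cdk1, at 31 in Plk1 and at -116 and -98 in Mki67, counted from the transcription start. NF-Y matches lie upstream of the CHR, at -44 in Espl1, at -177 and -148 in Ncapd2 and at -14 in Plk1. Ncapd2 has a further NF-Y match at -48, downstream of its CHR. Cdk1 carries NF-Y matches at -208, -80 and -48, and Mki67 at -188, -166 and -141.

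Among the 37 windows of the members, which include a second overlapping start of Ect2 and of Prc1, a CHR was present in 29 (78.4%) and an NF-Y box in 29 (78.4%), both together in 26 (70.3%). Among all 32851 promoter windows of the same length the shares were 17.9% for CHR, 37.4% for the NF-Y box and 6.95% for both. A CHR within 50 bases of the start was present in 70.3% of the members' windows and in 4.94% of all windows. The 34 CHR matches, taking 1 window per gene, lay on the gene's strand in 25 cases and began at a median position of -1, while the 62 NF-Y matches were spread over both strands (28 and 34) with a median position of -74.5. The list most like the members, other mitosis genes, held a CHR in 45.5% of 77 windows, an NF-Y box in 61% and both in 32.5%. Genes of DNA replication, which are known to rely on E2F factors, held a CHR in 10.7% of 28 windows and an NF-Y box in 57.1%.

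The age changes of members with and without a CHR match overlapped, and a relation between change and motif was not tested. The 27 members with a CHR match had log2 changes from -0.32 to 0.25 with a median of -0.14. The 8 without a match had changes from -0.29 to 0.016 with a median of -0.19. Both genes that fell are among the 27 with a CHR, and so are Plk1, Aurka and Mki67. Among the 8 without a match in this window are Ccnb1, Mad2l1 and Bub1. A match is a description of the sequence and shows no binding in these cells.

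**Figure D4:**
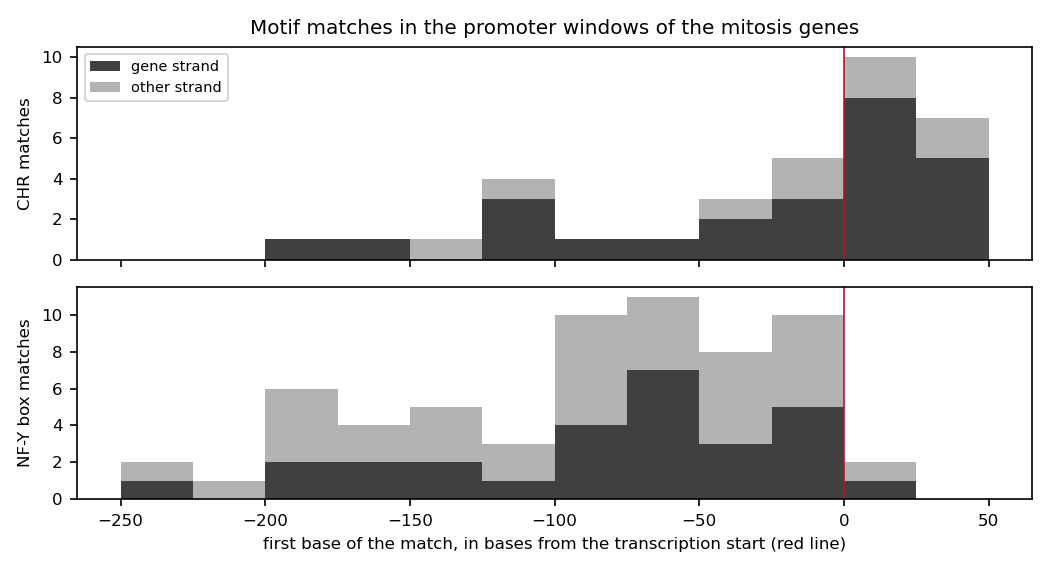
Number of CHR matches (top) and NF-Y box matches (bottom) by position of their first base relative to the transcription start, in bins of 25 bases, over 1 promoter window for each of 35 mitosis genes; dark bars are matches on the gene's strand and pale bars on the other strand. CHR matches gather around the start, with a median of -1, and NF-Y matches upstream of it, with a median of -74.5.

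Other genes of the same machinery were read from a list of 87 further mitosis genes, of which 8 fell and 1 rose in aged monocytes, 10.3% of the list against 5.77% of all tested genes. Genes of this list called lower numbered 2 with upper-quartile or library-size scaling, 3 after thinning to equal depth and 5 with DESeq2. They numbered 14 with no low-count filter, where 793 of all genes fell. With a block for the replicate number they numbered 20, where 1016 of all genes fell. The count called thus depended on the settings, and the excess over the background was not compared across them. The median log2 change of the list was -0.14, near that of the 41. Falls were found for Rad21, the cohesin subunit that separase cuts, at 96.3 and 116 CPM in aged and 147 and 158 CPM in young monocytes (-0.52 ± 0.090, edgeR adjusted p = 0.00864), and for Stag1, another cohesin subunit (-0.27 ± 0.067). Cdc25b, the phosphatase that activates Cdk1, fell by 0.39 ± 0.087 on the log2 scale, the Cdk1-binding protein gene Cks2 by 0.32 ± 0.081 and the cyclin F gene Ccnf by 0.25 ± 0.064. The condensin II gene Ncapg2 (-0.50 ± 0.12), the spindle pole gene Aspm (-0.46 ± 0.11) and Fam83d (-0.52 ± 0.13) fell as well. Zwint, a kinetochore protein, was the gene that rose, at 53.9 and 49.9 CPM in aged and 34.96 and 35.27 CPM in young monocytes (0.56 ± 0.088, adjusted p = 0.00508). Of these 9 genes Rad21 passed with each library left out (adjusted p = 0.00061 to 0.0278), Zwint was lost without young replicate 1 (0.05002), and the 7 others were lost without young replicate 1 (0.108 to 0.333) and without at least 1 further library.

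Of 18 regulators of mitotic genes 1 fell and 0 rose, which is 5.56% against 5.77% of all tested genes. It was E2f8, a repressor among the E2F factors, at 58.6 and 61.0 CPM in aged and 71.3 and 77.9 CPM in young monocytes (-0.32 ± 0.081, edgeR adjusted p = 0.0488), which did not pass with any library left out (0.0678 to 0.258), with upper-quartile (0.0561) or library-size scaling (0.0522), or after thinning (0.0664). Foxm1, named here after its values were seen, had 54.9 and 57.8 CPM in aged and 65.6 and 67.7 CPM in young monocytes (-0.24 ± 0.079, adjusted p = 0.107). Among 30 genes of DNA replication, the helicase subunit gene Mcm7 (-0.30 ± 0.063), and Pole, the catalytic subunit of DNA polymerase epsilon (-0.74 ± 0.14), fell and 0 rose, 6.67% of the list, with a median of -0.17. The summed replication genes stood at 2590 and 2600 CPM in aged and 2851 and 2899 CPM in young monocytes, a ratio of 0.902 beside 0.921 for the 41 mitosis genes. Without young replicate 1 neither Mcm7 (0.16) nor Pole (0.134) passed, and Mcm7 was lost also without young replicate 2 (0.0645).

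**Figure D5:**
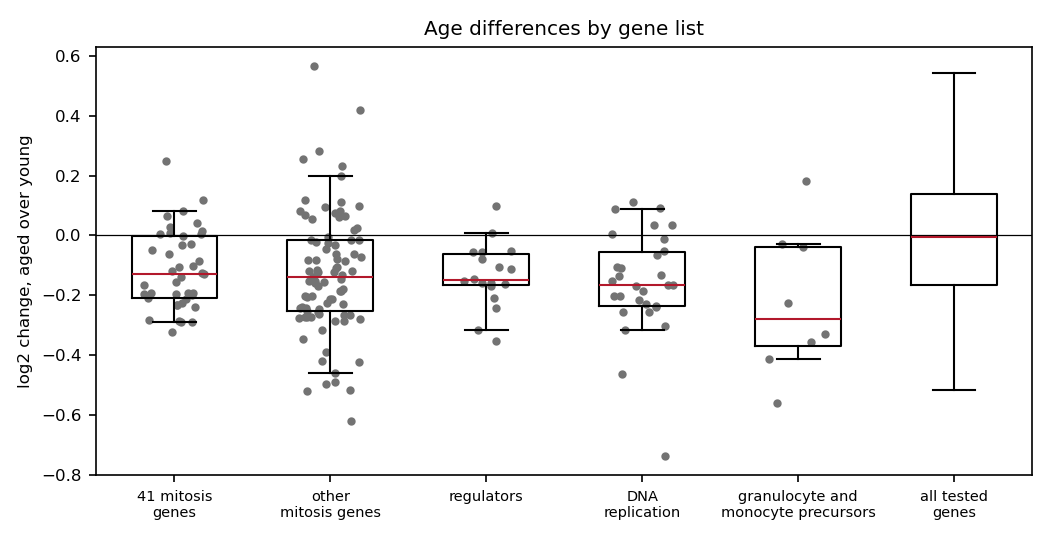
Log2 change, aged over young, of each gene (points) in 5 lists, with boxes for the quartiles, red lines for the medians and whiskers for the 5th and 95th percentiles; all tested genes are drawn as a box only. The medians are -0.13 for the 41 mitosis genes, -0.14, -0.15 and -0.17 for other mitosis genes, regulators and replication genes, -0.28 for precursor markers and -0.0044 for all tested genes.

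Markers of granulocyte and monocyte precursors, which divide in the marrow, were lower in aged monocytes for 5 of 8 genes. These 5 fell and 0 rose, 62.5% of the list, where 2.89% of all tested genes fell and 2.87% rose. The summed level of all 8 was 3308 and 3377 CPM in aged and 3965 and 4004 CPM in young monocytes, a ratio of 0.839. Mpo, the myeloperoxidase gene, had 1527 and 1547 CPM in aged and 1741 and 1854 CPM in young monocytes (-0.23 ± 0.052, edgeR adjusted p = 0.0329), and Elane, the neutrophil elastase gene, had 839.7 and 869 CPM against 1064 and 1086 CPM (-0.33 ± 0.051, adjusted p = 0.00473). Prtn3 (-0.36 ± 0.064) and Ctsg (-0.42 ± 0.084), which encode granule proteases, and the precursor membrane protein gene Ms4a3 (-0.56 ± 0.080) fell too. The 3 others, named after their values were seen, did not pass, at 0.18 ± 0.11 for Cebpe, -0.040 ± 0.077 for Fcnb and -0.029 ± 0.057 for Clec12a. Elane and Ms4a3 passed with each library left out, Prtn3 and Ctsg were lost without young replicate 1 (0.116 and 0.198), and Mpo when aged replicate 2 or either young library was left out (0.0516 to 0.143). The part of such precursors in the levels of the mitosis genes was not tested.

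Markers of other cell types were mostly low in level. The log2 change was positive in 8 of 10 tested erythroid and 8 of 9 T and NK cell markers, with medians of 0.44 and 0.28. It was positive in 5 of 5 plasma cell and 3 of 3 tested megakaryocyte markers, with medians of 0.61 and 1.29. Over all tested genes 50.7% had a negative change, 2.87% rose and 2.89% fell. Among stem and progenitor markers Kit fell, at 11.8 and 16.3 CPM in aged and 23.0 and 23.4 CPM in young monocytes (-0.73 ± 0.15), and Flt3 rose, at 39.0 and 38.6 CPM against 27.1 and 29.1 CPM (0.47 ± 0.095); neither passed without young replicate 1 (0.0964 and 0.178). The summed level of the 10 tested markers was 113 and 117 CPM in aged and 120.2 and 124 CPM in young monocytes, and Mecom had 0 counts in all libraries. Of 10 tested erythroid markers Car2 rose, and the summed level was 393 and 398 CPM in aged and 391 and 351 CPM in young monocytes, with young replicate 1 close to the aged libraries. Of 11 genes listed as B-cell precursor markers 6 were tested, while Vpreb1, Igll1, Rag1, Rag2 and Pax5 had too few counts. Cd79b was among those that rose, at 25.04 and 27.61 CPM in aged and 18.52 and 18.41 CPM in young monocytes (0.51 ± 0.11, edgeR adjusted p = 0.025). It did not pass without aged replicate 2 or either young library. Whether its transcripts came from B-cell precursors was not tested. Of 5 plasma cell markers Sdc1 rose, with sums of 497 and 483 CPM in aged and 419 and 421 CPM in young monocytes. The highest value of any of the 5 was 449 CPM, while the median marker averaged 10.9 CPM. The plasma cell sum thus rested mostly on 1 gene. Of 9 T and NK cell markers 0 passed with edgeR, while 1 was lower and 1 higher at an unadjusted p under 0.05. Of 3 tested megakaryocyte markers 0 passed and 2 were higher at that p. In either direction 21.1% of all tested genes had such a p. The T and NK sum was 46.6 and 45.6 CPM in aged and 48.5 and 54.0 CPM in young monocytes, and most of it came from Nkg7, the 1 negative member, at 32.8 and 29.1 CPM in aged and 36.8 and 41.5 CPM in young monocytes. The megakaryocyte sum was at most 3.45 CPM. Of monocyte markers Csf1r, Cd68 and Spi1 rose and Ly6c2, a marker of classical monocytes, fell. Csf1r and Ly6c2 passed with each library left out. Cd68 did not pass without aged replicate 2 or either young library, and Spi1 did not without young replicate 1. The part of these cells in the mitosis genes was not tested.

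Some values carry a counting limit. Exons of 10 members overlap those of a gene on the opposite strand (Ccna2, Plk1, Cdca8, Cdc20, Ube2c, Kif4, Nusap1, Kif20a, Prc1 and Ncapg), and those of Ncapd2 and Top2a overlap small RNA genes or an unnamed model on the same strand. The labels do not state the strand setting of the counting, and reads of these genes and their neighbours may be mixed. Without young replicate 1, 0 of the 41 members passed with edgeR, and 81 of all tested genes fell and 116 rose.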

How the data were processed

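Per the labels, RNA of monocytes isolated by FACS was selected with oligo-dT beads, and dUTP in the second strand kept strand information. The authors deposited a table of raw, unnormalized counts by symbol for each library. The build mm10 and the tools HTSeq, STAR 2.5.3, cutadapt and DESeq2 appear in the submitters' processing notes. For the counting, the annotation and strand setting were not found in the labels. Groups were taken from the sample titles. Genes were kept by filterByExpr (minimum count 10, total 15), scaled by TMM, and tested over the whole table with edgeR 4.0.16 (quasi-likelihood F-test, R 4.3.3), adjusted by Benjamini-Hochberg at 0.05. Standard errors were derived from the log2 change and the root of F, and 95% intervals from up to 10.3 degrees of freedom. Library totals were 24918091 and 21837261 (aged) and 34278754 and 20159129 (young), so 3 counts, the limit a count of 0 allows, are 0.120 and 0.137 CPM (aged) and 0.0875 and 0.149 CPM (young). Such limits cover counting error only. Positions and merged exon lengths came from GENCODE M21 (GRCm38), promoters from RefSeq. The members and lists were chosen with earlier results of these data known, so no list was given a p. All members could be named; of other mitosis, regulator and replication genes those past the threshold, or the 3 with the smallest p in a list; of marker lists the 2 most abundant and up to 4 called per direction. Lyz2, S100a9, Ccr2 and Mecom are given as levels. Untested B-cell precursor markers are named as such. Alternatives tried were other scalings (RLE, upper quartile, plain library size), no low-count filter, a mean of at least 5 CPM, DESeq2 1.42.0, limma-voom 3.58.1, a robust fit, thinning to the smallest total, a block for the replicate number in the titles, and leaving out single libraries, where a lone library is assumed to vary like the other group. The procedure was tested on simulated data. Some marker gene results are not reported here.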

Additional observations from a re-analysis of the deposited data

How the results depend on the processing

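The median change of the 41 mitosis genes stayed negative in all alternatives, from -0.135 to -0.118 without leaving out libraries and from -0.171 to -0.108 with a library left out. The 2 genes called lower became 7 with no low-count filter, where 793 of all genes fell and 606 rose, and 0 to 5 with a library left out, where 81 to 588 of all genes fell and 116 to 452 rose; 0 to 1 members were then called higher. The replicate numbers of the titles mark no stated pair, and deviations of same-numbered libraries correlated at 0.12 across genes. With the replicate number as a block 11 members fell and 1 rose (Mki67), against 1016 falls and 801 rises among all genes. Other mitosis genes called lower, 8 in the reported fit, were 2 with upper-quartile or library-size scaling, 14 with no filter, 5 with DESeq2, 3 after thinning, 20 with the block and 1 to 14 with a library left out; those called higher were 3 with no filter, 3 with the block and 0 to 2 with a library left out. Regulators called lower were 0 with upper-quartile or library-size scaling and after thinning, 4 with the block and 0 to 1 with a library left out. Replication genes called lower were 7 with no filter, 9 with the block and 0 to 3 with a library left out. The summed cyclins and entry kinases gave -0.133 with upper-quartile factors. With a library left out the condensin and chromosome group gave -0.218 to -0.0967 and the passenger complex -0.0157 to 0.0719. Sign changes were limited to members close to 0 or split by a library. Aurka gave 0.0101 with upper-quartile factors and 0.000378 with library size, and Kif23 -0.000936 after thinning. With a library left out the ranges were -0.0403 to 0.0616 for Plk1, -0.0176 to 0.0126 for Aurka, -0.022 to 0.0725 for Aurkb, -0.00879 to 0.138 for Cdca8, -0.339 to 0.0893 for Cenpf, -0.116 to 0.126 for Ndc80, -0.0293 to 0.179 for Kif4, -0.0221 to 0.0562 for Nusap1, -0.0384 to 0.0485 for Kif23, -0.111 to 0.0493 for Prc1, -0.083 to 0.0192 for Smc2 and -0.0384 to 0.479 for Mki67. The cause of these changes was not tested.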
